A study of Mus musculus with 6 samples.

Results

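The genes described here are the histone genes of the mouse Hist clusters, taken as every row of the deposited count table whose symbol opens with Hist1h, Hist2h, Hist3h or Hist4h. The rule gave 62 of the 22956 genes in the table. The Hist1 cluster on chromosome 13 contributed 49 genes, the Hist2 cluster on chromosome 3 contributed 9, the Hist3 cluster on chromosome 11 contributed 3, and Hist4h4 on chromosome 6 stood alone. By histone type there were 6 linker H1 genes, 18 H2A, 17 H2B, 10 H3 and 11 H4. Of the 62 genes, 3 were annotated as pseudogenes: Hist1h2aj and Hist1h2al of the H2A type and Hist3h2bb-ps of the H2B type. RNA was sequenced from mouse aorta in 2 groups of 3 libraries. The WT group was WT/mTmG/Myh11ERT2, and the knockout group was miR-21fl/fl mTmG/Myh11ERT2. Both groups therefore carried the mTmG reporter and a Cre driven by Myh11, and both were strain C57B6, 30 weeks old and on a western diet for 20 weeks. The sample titles name aortic smooth muscle cells. The Cre acts in cells that express Myh11, so other cells of the vessel would keep their miR-21. Cre fused to ERT2 is active only after tamoxifen, and the labels do not say whether or when it was given. The labels do not say whether the libraries of a group came from separate animals, so the p-values measure the spread between these libraries, which may be technical.

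Most genes of these clusters encode the core and linker histones that package newly copied DNA, and they are switched on together when a cell enters S phase. Their mRNAs are unusual among messenger RNAs: most lack introns and end in a short stem-loop, bound by the stem-loop binding protein SLBP, in place of a poly(A) tail. Some cluster genes are also known to give longer, polyadenylated transcripts in cells that have stopped dividing. Replacement histones such as H3.3 come from single genes outside the clusters, and most are made throughout the cell cycle from mRNAs with poly(A) tails.

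The stem-loop is the feature that sets these mRNAs apart, so its variants are shown first. In GENCODE M21 (GRCm38, which is mm10), 57 of the 62 members had a single exon. A stem-loop of the form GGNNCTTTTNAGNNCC, with paired stems, was found in the annotated transcript of 41 members. Of all 55450 genes searched, members included, 49 had one (0.0884%), and 8 of these lay outside the members. In the members the stem-loop began 21 to 58 bases after the stop codon, with a median of 32. The 6 variants are given below 5′ to 3′ in the letters of DNA, with the 4 bases of the loop in capitals.
Variant of 24 H1, H2A, H2B and H3 genes, Hist1h1c, Hist2h2aa1, Hist2h2aa2 and Hist3h2a among them: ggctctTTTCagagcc
Variant of 6 H4 genes, Hist1h4d and Hist4h4 among them: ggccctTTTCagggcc
Variant of 6 H1, H2B and H3 genes, Hist1h3f among them: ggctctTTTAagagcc
Variant of Hist1h4i and Hist2h4: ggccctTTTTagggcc
Variant of Hist1h4b and Hist1h4j: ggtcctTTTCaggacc
Variant of Hist2h2ac: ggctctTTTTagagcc

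The H4 genes with a match carried stems other than those of the H1, H2A, H2B and H3 genes. Of the 41 members with a stem-loop, 20 had an annotated transcript that ended within 100 bases of it, and 21 ran further. The remaining 21 had no match in the annotated transcript. They included Hist1h2bc, whose annotated transcript is spliced from 2 exons, and models that stop at the stop codon, such as Hist1h1b, so no match says only that these letters are not in the annotated transcript.

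Promoter windows from RefSeq (GRCm38.p6, each 300 bases long and running 50 bases past the start) were found for 54 members, as 55 windows. The CCAAT box, the letters CCAAT on either strand, was in 87.3% of the member windows against 37.4% of all 32817 windows. It was in every window of the H1, H2A, H2B and H3 genes but in 3 of the 10 windows of the H4 genes. The TATA box letters TATAAA were in 50.9% of member windows against 13.6% of all windows. The octamer ATTTGCAT was in 21.8% against 1.74%, in 6 of 16 H2A and 6 of 15 H2B windows and in none of the H1, H3 or H4 windows. Motifs were searched on both strands, and each was counted without regard to the others. Windows are shown for the 2 most abundant members, with these motifs in capitals. The window of Hist1h1c, chr13:23738557-23738856 on the plus strand, held 1 CCAAT box. Hist1h2bc had no window of its own. It starts at base 23684199 of the plus strand, inside the window of the divergent gene Hist1h2ac (chr13:23683910-23684209, minus strand), so that window is shown, as read for Hist1h2ac.
Hist1h1c window: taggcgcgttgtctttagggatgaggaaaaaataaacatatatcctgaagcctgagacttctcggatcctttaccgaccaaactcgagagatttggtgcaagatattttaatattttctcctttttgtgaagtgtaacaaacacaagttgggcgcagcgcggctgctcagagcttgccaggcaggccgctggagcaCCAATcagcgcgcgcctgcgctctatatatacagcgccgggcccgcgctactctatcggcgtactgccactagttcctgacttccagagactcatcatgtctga
Hist1h2ac window: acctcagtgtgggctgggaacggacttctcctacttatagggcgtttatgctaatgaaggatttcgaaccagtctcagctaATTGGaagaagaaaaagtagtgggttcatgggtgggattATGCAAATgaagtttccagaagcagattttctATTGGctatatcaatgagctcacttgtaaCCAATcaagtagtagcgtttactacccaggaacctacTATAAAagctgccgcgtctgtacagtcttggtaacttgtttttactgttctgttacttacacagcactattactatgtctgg
The Hist1h2ac window held 3 CCAAT boxes, 1 TATA box and 1 octamer.

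Values below are CPM, the estimated counts relative to the size of the library, scaled between libraries by the trimmed mean of M values. Libraries held 37787465 to 154384307 counts, a 4.09-fold range, with WT 3 the deepest. The table used here has no row for Mir21a, so the deletion itself was not analysed here. Vmp1, the gene at the miR-21 locus, was at 87.0, 58.3 and 63.7 CPM in the WT libraries and 77.1, 61.4 and 65.7 CPM in knockout, which does not check the deletion. Summed CPM of 7 smooth muscle markers was 23000 to 34620 in WT and 27720 to 36050 in knockout. The other cell types were present at varying levels: 6 fibroblast markers summed to 6416, 2897 and 5781 CPM in the WT libraries and 5274, 1313 and 1819 CPM in knockout, and 5 erythroid markers to 368, 52.3 and 14.3 CPM against 193, 56.3 and 25.7 CPM. Macrophage markers summed to 3.44 to 18.2 CPM in the WT libraries and 3.91 to 18.9 CPM in knockout. The 7 lymphocyte markers stayed at or below 0.686 CPM in sum, and of the neutrophil markers S100a8 was at 0 throughout.

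All 62 members had at least 1 count in some library, but the cluster histones were low in these libraries. The level of an mRNA without a poly(A) tail also depends on whether the libraries selected for the tail, which was not tested. Only 20 members averaged at least 1 CPM and 4 at least 10 CPM, while 37 stayed under 1 CPM in all 6 libraries. Per kb of transcript, the highest mean levels were those of the H2B gene Hist1h2bc (69.3 CPM per kb) and the H1 gene Hist1h1c (47.5 CPM per kb). The H2A genes Hist2h2aa2, Hist2h2aa1 and Hist3h2a followed at 17.3, 12.9 and 10.2 CPM per kb, the highest H4 gene was Hist1h4d at 6.4 and the highest H3 gene was Hist2h3c2 at 1.90 CPM per kb. Hist1h1c and Hist1h2bc together held 61.3% of all member CPM. Each dominated its histone type: Hist1h1c gave 85.2% to 92.0% of linker histone CPM by library, and Hist1h2bc gave 74.8% to 83.6% of H2B CPM.

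**Figure D1:**
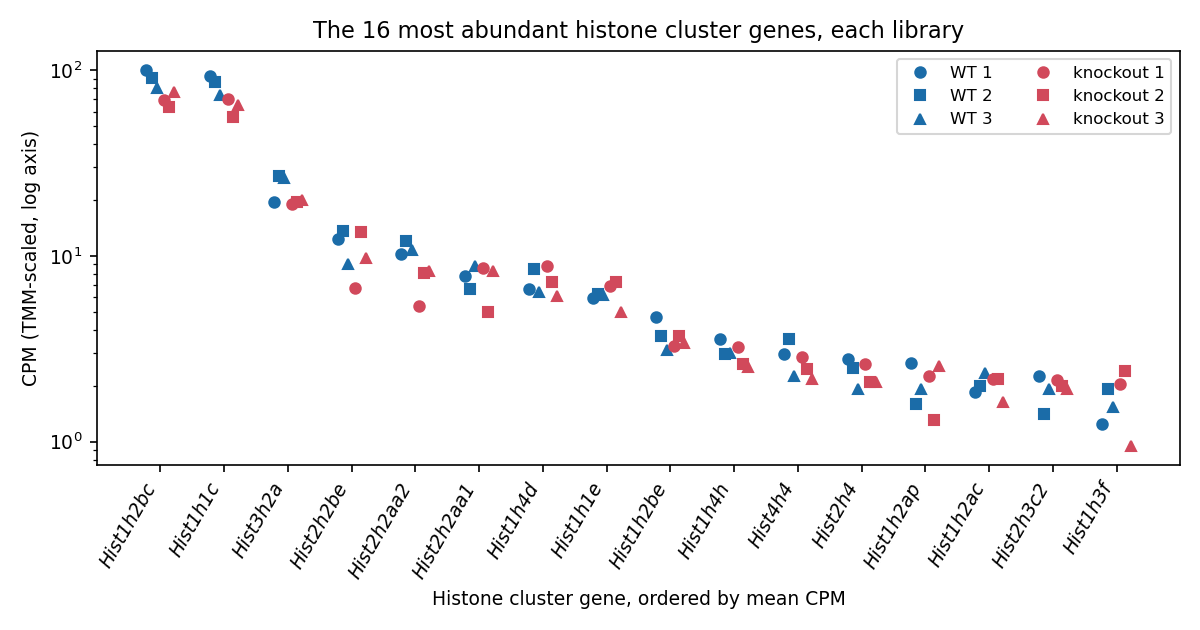
CPM (log axis) of the 16 most abundant members in each of the 6 libraries, ordered by mean CPM, with WT in blue, knockout in red and 1 marker shape per replicate number. Hist1h2bc and Hist1h1c lie far above the rest, and their 3 knockout points lie below their 3 WT points.

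A level for a gene with near-identical copies depends on how reads were shared among them. Of the members, 17 shared over 80% of their 50-base windows with another annotated gene and 5 shared all of them. Both strands and genes that overlap the member were included, so this share does not count copies. Hist2h2bb, for example, shared all its windows, but only with Gm20628 and Gm42743, which overlap it. Hist1h1c shared 8.54% and Hist1h2bc 30.6%, so most of the sequence of the 2 leading members was their own. In bulk tissue, fewer cells of a type and less RNA per cell cannot be told apart.

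No histone cluster gene was called in knockout against WT. Of the 62 members, 30 passed the filter on low counts and 32 did not. The edgeR quasi-likelihood test over 16654 genes, with Benjamini-Hochberg adjustment, called 0 members at an adjusted p under 0.05, beside 0% of all genes, while DESeq2 called 1, the pseudogene Hist1h2al described further on. The lowest adjusted p was 0.78 for a member and 0.217 for any gene. At an unadjusted p under 0.05 there were 4 members, all lower in knockout (13.3% of those tested, beside 2.01% of all genes), and 0 higher members, beside 3.95% of all genes. The 3 knockout libraries lay below the 3 WT libraries in 3 of the 30 members tested (10%, beside 5.6% of all genes) and above them in 0 (beside 6.48%). Fitted fold changes were below 0 in 18 of the 30, or 60%, beside 50.6% of all genes, and the median log2 fold change was -0.078, beside -0.002 for all genes.

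Hist1h1c encodes H1.2, one of the somatic linker histones, which bind the DNA that enters and leaves the nucleosome. The gene lies on chr13:23738808-23740367, plus strand, as a single exon. It was at 93.4, 86.4 and 73.8 CPM in the WT libraries and 70.2, 55.8 and 65.0 CPM in knockout. The groups did not overlap, but WT 3, the lowest WT library, was only 5.23% above knockout 1, the highest knockout library. The fitted log2 change was -0.41 ± 0.12 (SE), a mean 24.7% lower, with an unadjusted p of 0.00969 and an edgeR adjusted p of 0.78. Leaving out each library in turn gave log2 fold changes from -0.50 to -0.32.

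Hist1h2bc encodes a core histone H2B, and its transcript is annotated over 2 exons on chr13:23684199-23692908, plus strand. It was at 101, 90.8 and 79.8 CPM in the WT libraries and 68.9, 63.6 and 76.5 CPM in knockout. Again all 3 knockout libraries were below all 3 WT libraries, with WT 3 and knockout 3 only 4.34% apart. The fitted log2 change was -0.38 ± 0.11 (SE), a mean 23.1% lower, with an unadjusted p of 0.00957 and an edgeR adjusted p of 0.78. It ranged from -0.46 to -0.29 when single libraries were left out.

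Hist2h2aa1 and Hist2h2aa2 encode core histone H2A and lie on opposite strands of chromosome 3, at 96245497 to 96246082 and 96239749 to 96240276. Every 50-base window of each was shared with another gene on 1 strand or the other. Antisense genes at the same place span the whole of each, so this share does not show how far the 2 genes match each other. How reads were split between them is not known here. Hist2h2aa2 was at 10.2, 12 and 10.7 CPM in the WT libraries and 5.39, 8.08 and 8.25 CPM in knockout, with no overlap between the groups. Its fitted log2 change was -0.60 ± 0.18 (SE), with an unadjusted p of 0.0117 and an edgeR adjusted p of 0.78. Hist2h2aa1 was at 7.78, 6.68 and 8.82 CPM in the WT libraries and 8.66, 4.99 and 8.33 CPM in knockout, so its groups overlapped. Its fitted log2 change was -0.09 ± 0.23 (SE). The share of the pair given to Hist2h2aa1 was 35.7% to 45.1% in WT and reached 61.6% in knockout 1, the library where Hist2h2aa2 was lowest. The sum of the pair does not depend on a split between them. It was 18.0, 18.7 and 19.5 CPM in the WT libraries and 14.1, 13.1 and 16.6 CPM in knockout, which did not overlap, with a log2 ratio of means of -0.364. Antisense transcripts overlap both genes, and the sources at hand do not give whether reads were counted by strand. Gm20634 overlaps Hist2h2aa1 on the same strand and ranged from 13.3 to 16.2 CPM over the WT libraries and from 13.2 to 13.8 CPM over the knockout libraries. The antisense Gm20632, which overlaps Hist2h2aa2, was at 10.8, 10.1 and 5.97 CPM in the WT libraries and 8.88, 5.70 and 7.40 CPM in knockout.

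Hist3h2a, an H2A gene of the small Hist3 cluster (chr11:58954685-58956830, plus strand), was the third of the members by CPM. It was at 19.5, 26.9 and 26.3 CPM in the WT libraries and 19.1, 19.6 and 19.9 CPM in knockout. WT 2 and WT 3 were high, and WT 1 lay inside the knockout span, so the groups overlapped. The fitted log2 change was -0.31 ± 0.13 (SE), with an unadjusted p of 0.0429 and an edgeR adjusted p of 0.83. The whole gene lies within Trim17 on the same strand, and Trim17 itself was at 0.196 to 1.40 CPM. Next by CPM was Hist2h2be, an H2B gene of Hist2, at 12.3, 13.7 and 9.08 CPM in the WT libraries and 6.68, 13.5 and 9.80 CPM in knockout. Its groups overlapped, with a log2 fold change of -0.22 ± 0.27 (SE). Leaving out single libraries gave -0.50 to -0.01.

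The leading H4 and H3 genes also showed no separation of the groups. Hist1h4d, an H4 gene of Hist1, was at 6.67, 8.47 and 6.38 CPM in the WT libraries and 8.85, 7.21 and 6.09 CPM in knockout. The groups overlapped fully, with a log2 fold change of 0.04 ± 0.18 (SE), and its edgeR adjusted p was 0.979. Hist2h3c2, an H3 gene of Hist2, was at 2.27, 1.40 and 1.91 CPM in the WT libraries and 2.15, 1.99 and 1.92 CPM in knockout, with a log2 fold change of 0.12 ± 0.22 (SE). All 3 knockout libraries lay within the WT span.

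**Figure D2:**
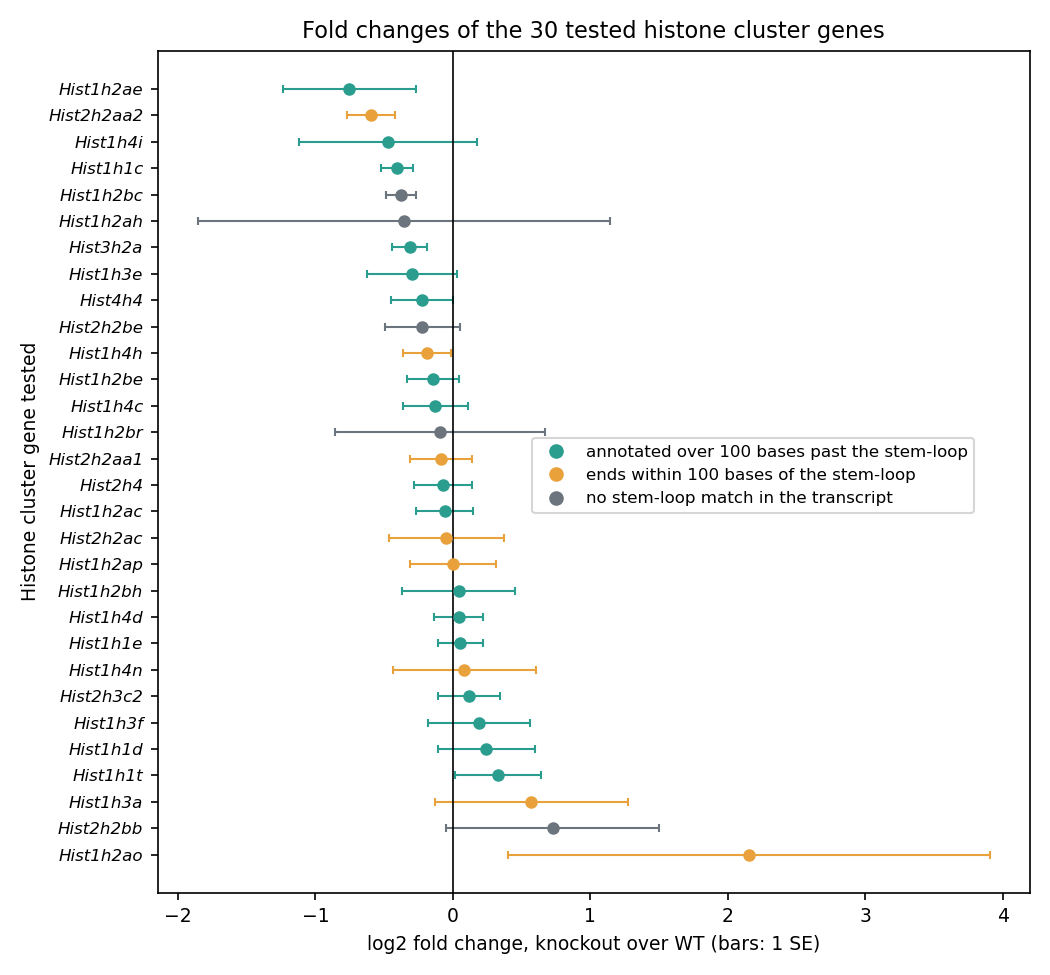
Log2 fold change of knockout over WT for the 30 members tested, with bars of 1 SE, coloured by where the annotated transcript ends relative to the stem-loop. Points lie on both sides of 0 in each colour, and the bars are widest for Hist1h2ao and Hist1h2ah.

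The fold changes farthest from 0 belonged mostly to genes with few counts. On the lower side, Hist1h2ae (H2A) had a log2 fold change of -0.75 ± 0.49 (SE) and Hist1h4i (H4) of -0.47 ± 0.65, beside the -0.60 of Hist2h2aa2. On the higher side, Hist1h2ao (H2A) was at 2.16 ± 1.75, Hist2h2bb (H2B) at 0.72 ± 0.78 and Hist1h3a (H3) at 0.57 ± 0.70. Apart from Hist2h2aa2, the SE of these estimates was of the order of the change itself, and none was called. Leaving out single libraries moved Hist1h2ao between 1.13 (without WT 3) and 7.59 (without WT 1), and Hist2h2bb between 0.33 (without knockout 1) and 1.23 (without knockout 2). Hist1h3a ranged from 0.21 (without WT 1) to 1.0 (without WT 2), and Hist1h2ae from -1.32 (without knockout 1) to -0.41 (without knockout 2). Hist1h2ao had 12, 0 and 0 counts in WT and 25, 0 and 27 in knockout, so 3 of the 6 libraries were at 0.

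By cluster, the summed CPM of the 49 Hist1 members was 235, 214 and 192 in WT and 184, 159 and 175 in knockout, a log2 ratio of means of -0.311. The Hist2 sum was 36.1, 37.5 and 33.2 CPM in the WT libraries and 26.7, 31.4 and 31.4 CPM in knockout, a log2 ratio of -0.255. In both clusters the knockout sums lay below the WT sums. Hist3, nearly all of it Hist3h2a, was at 19.6, 27.1 and 26.4 CPM against 19.1, 19.7 and 20.0 CPM, and WT 1 lay within the knockout span. Hist4h4, an H4 gene, was at 2.95, 3.56 and 2.25 CPM in the WT libraries and 2.84, 2.47 and 2.17 CPM in knockout, with a log2 fold change of -0.22 ± 0.22 (SE), and its groups overlapped.

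Over all 62 members the sum was 294, 282 and 254 CPM in the WT libraries and 232, 212 and 228 CPM in knockout. The groups did not overlap. The means were 276.6 ± 20.4 and 224.2 ± 10.5 CPM (SD, n = 3 each), a log2 ratio of -0.303, to which no test was applied. Much of this came from the 2 leading genes. Without Hist1h1c and Hist1h2bc, a split made after the values were seen, the sum was 99.3, 105 and 100.3 CPM in the WT libraries and 93.2, 92.9 and 86.7 CPM in knockout, a log2 ratio of -0.159. The other 47 Hist1 members summed to 40.7, 36.7 and 38.4 CPM in the WT libraries and 44.5, 39.3 and 33.2 CPM in knockout, with a log2 ratio of 0.014. That sum includes the pseudogene Hist1h2al, at 2.36 and 2.27 CPM in knockout 1 and 3 and at most 0.0527 CPM in the other libraries. The sign of so small a ratio therefore carries little weight. Within Hist1, the lower knockout sum was mostly that of 2 genes. Of the 19 other Hist1 members tested, 9 had fitted fold changes below 0 and 10 above.

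By histone type, the H1 sum had a log2 ratio of -0.36 and the H2B sum of -0.341, each carried by its leading gene. The 3 other H1 genes tested had positive fold changes: Hist1h1d 0.24 ± 0.35, Hist1h1e 0.05 ± 0.16 and Hist1h1t 0.33 ± 0.31 (SE). None of these exceeded its error by much, and none was called. The H2A sum was 45.9, 50.7 and 52.6 CPM in the WT libraries and 43.3, 38.5 and 44.1 CPM in knockout, a log2 ratio of -0.246 without overlap. The H3 sum was 5.35, 5.52 and 5.44 CPM in the WT libraries and 6.46, 6.02 and 4.12 CPM in knockout, a log2 ratio of 0.025. The H4 sum was 20.0, 21 and 17.5 CPM in the WT libraries and 20.8, 17.3 and 16.6 CPM in knockout, a log2 ratio of -0.097. For H3 and H4 the groups overlapped.

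**Figure D3:**
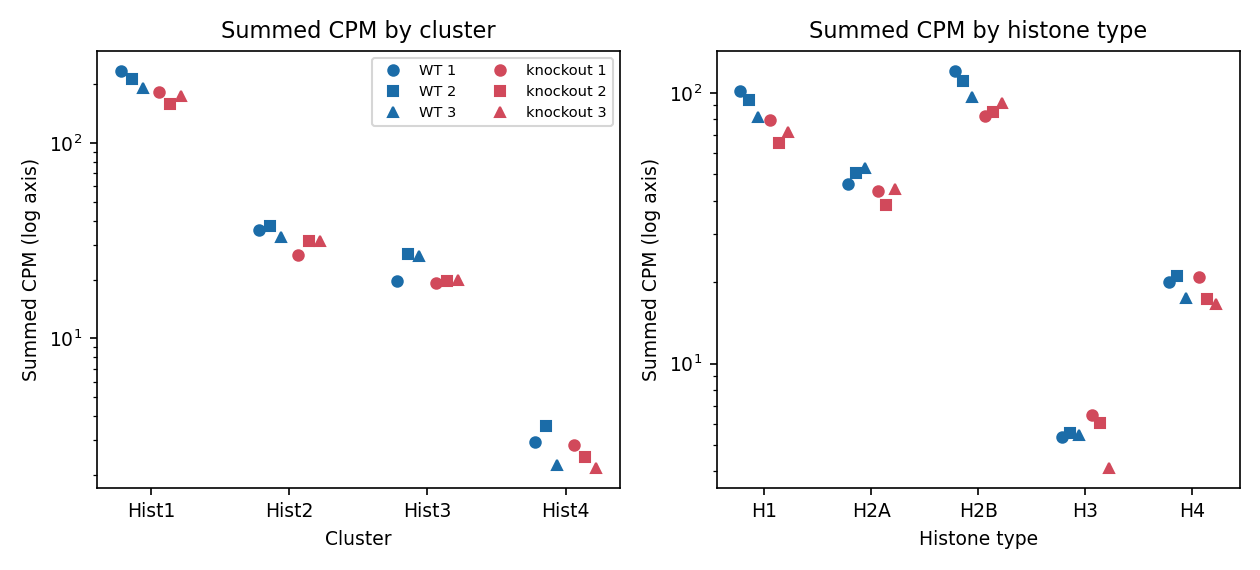
Summed CPM (log axes) of the members by cluster (left) and by histone type (right) in each library, WT in blue and knockout in red. The knockout sums lie below the WT sums in Hist1, Hist2, H1, H2A and H2B and overlap them in Hist3, Hist4, H3 and H4.

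Fibroblast marker sums were lowest in knockout 2 and knockout 3, at 1313 and 1819 CPM, while knockout 1 at 5274 CPM lay within the WT span. These sums were mostly Lum and Dcn, which with Pdgfra were lowest in knockout 2 and knockout 3. The other markers, Pi16, Dpt and Col14a1, were lowest in WT 2, at 1.06, 5.11 and 70.2 CPM. The RNAs without a poly(A) tail that the table holds (9 of 18 listed) summed to 176.4, 186.6 and 179.1 CPM in the WT libraries and 139, 146 and 233 CPM in knockout. In these sums knockout 1 and 2 were low, and knockout 3 was the highest library of all. Most of each sum was Rn7s1 and Rn7s2, which each showed that order. Rn7sk did not, at 24.3, 28.4 and 27.3 CPM in the WT libraries and 27.2, 23.5 and 24.5 CPM in knockout. In Scarna2 knockout 3 was the highest, but knockout 1 lay within the WT span. Among the 4 tested, Rn7sk had a log2 fold change of -0.09 ± 0.09, Rn7s2 of -0.09 ± 0.22, Rn7s1 of -0.02 ± 0.26 and Scarna2 of -0.30 ± 0.47 (SE). The part of these differences between libraries in the histone sums was not tested.

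Members with transcripts that run on past the stem-loop passed the filter more often. The filter is on counts, which a longer transcript collects more of. Of the 21 members annotated more than 100 bases past it, 17 passed the filter, against 8 of the 20 that end within 100 bases and 5 of the 21 with no match. These classes were formed after the values were seen. Mean levels per kb ran from 0.0565 to 47.5 CPM per kb (median 0.946) in the first class, from 0.0384 to 17.3 (median 0.316) in the second and from 0.0429 to 69.3 (median 0.261) in the third. The members that ran past held 52.1% of member CPM, those that ended near the loop 9.79% and those with no match 38.1%. The log2 ratio of knockout to WT sums was -0.293, -0.279 and -0.323 in the 3 classes, with no test applied. Single genes weighed heavily in these ratios. In the first class Hist1h1c held 84.6 of the mean 143.5 CPM in WT and 63.7 of 117.2 CPM in knockout. In the third class Hist1h2bc held 90.6 of 106.3 CPM in WT and 69.6 of 85.0 CPM in knockout. Among members that end near the loop, the sum was 27.3, 26.0 and 27.2 CPM in the WT libraries and 22.8, 18.9 and 24.7 CPM in knockout. That sum too lay lower in each knockout library than in any WT library, and the Hist2h2aa1 and Hist2h2aa2 pair made up most of it.

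**Figure D4:**
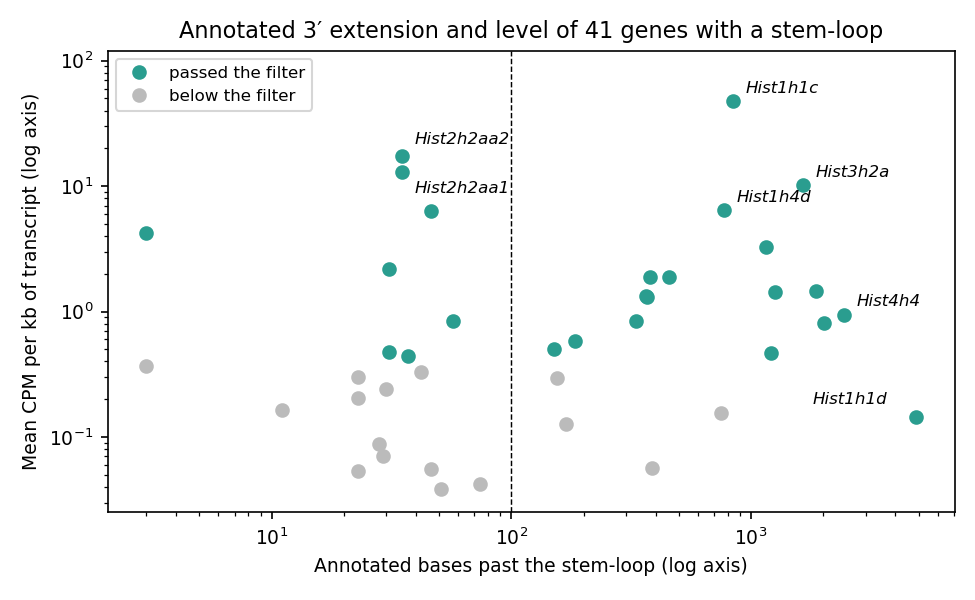
Mean CPM per kb of transcript (log axis) against the annotated bases that follow the stem-loop (log axis) for the 41 members with a stem-loop, with members that passed the filter in green and the others in grey. The dashed line marks 100 bases; 17 of 21 points right of it passed the filter, against 8 of 20 left of it.

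Hist1h2al was the only member with a DESeq2 call, and 2 libraries set it. It is annotated as a processed pseudogene of the H2A type at chr13:51202727-51203065, minus strand, which is outside the main run of Hist1 genes, and 67.6% of its 50-base windows are shared with other genes. It is described because of its values, which were seen first. Its rounded counts were 2, 2 and 5 in WT and 88, 2 and 163 in knockout. In CPM it was at 0.0527, 0.0491 and 0.0325 in WT and 2.36, 0.0458 and 2.27 in knockout. Knockout 1 and knockout 3 were thus far above the other 4 libraries, while knockout 2 was at the WT level. The filter removed it, as too few libraries had enough counts. DESeq2 called it higher in knockout, with a log2 fold change of 5.19 and an adjusted p of 0.00137. DESeq2 called 0.341% of its 17578 genes higher. In edgeR without a filter its adjusted p was 0.936. In the edgeR fits that left out a library and kept the gene, its adjusted p ran from 0.0567 (without knockout 2) to 0.978.

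A few other low members split the libraries of a group. Hist2h2bb, an H2B gene, was at 0.211, 0.515 and 0.247 CPM in the WT libraries and 0.804, 0.0687 and 0.695 CPM in knockout, so knockout 1 and knockout 3 were again the highest and knockout 2 the lowest. The lincRNA Gm42743, which overlaps Hist2h2bb on the same strand, was at 0.105, 0.0245 and 0.0779 CPM in the WT libraries and 0.912, 0.114 and 0.987 CPM in knockout. Hist1h3a, an H3 gene, was at 0.0527, 0.319 and 0.195 CPM in the WT libraries and 0.429, 0.0915 and 0.334 CPM in knockout. The groups overlapped in Hist2h2bb and Hist1h3a. Hist1h2ah and Hist1h2ao, which share over 90% of their windows with other genes, were at 0 in some libraries of both groups. How reads that match several copies were counted is not known here, so these 0s are uncertain.

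**Figure D5:**
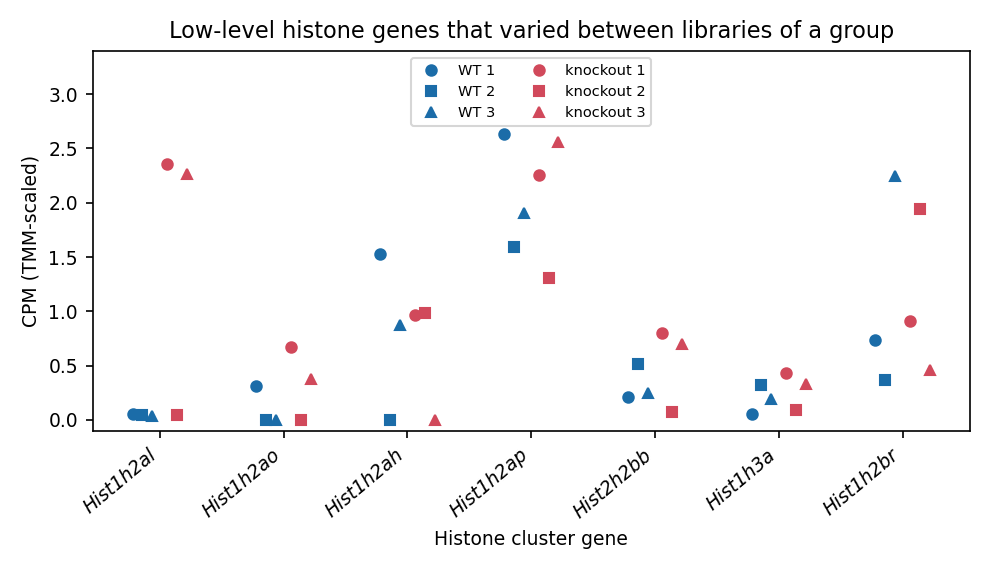
CPM of 7 low members in each library, WT in blue and knockout in red, chosen after the values were seen. Hist1h2al stands at 2.36 and 2.27 CPM in knockout 1 and 3 and below 0.06 in the other 4 libraries, and the WT and knockout points of the other 6 genes overlap.

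The replacement histones, made from genes outside the clusters, had a much higher summed CPM. Their mRNAs have poly(A) tails, so the 2 sums are not comparable if the libraries selected for the tail. The 11 genes summed to 1411, 1435 and 1550 CPM in the WT libraries and 1369, 1451 and 1324 CPM in knockout. Of them 0 were called by edgeR and 0 had an unadjusted p under 0.05. Fitted fold changes were below 0 in 10 and above in 1, with a median log2 of -0.078. The H3.3 genes H3f3a and H3f3b stood at -0.05 ± 0.10 and -0.08 ± 0.09 (log2 fold change, SE), and H2afz, which encodes H2A.Z, had -0.08 ± 0.09. H1f0, the linker histone of resting cells, was at 146.4, 113.6 and 110.0 CPM in the WT libraries and 117, 97.4 and 84.1 CPM in knockout, with overlapping groups and a log2 fold change of -0.31 ± 0.16. H2afj was at -0.11 ± 0.07, and Cenpa, the H3 variant of centromeres, at -0.52 ± 0.37. Without WT 1 the value for H1f0 was -0.17 and that for Cenpa -0.06, and without WT 2 Cenpa was at -0.79.

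The genes that transcribe and process histone mRNA gave no call. Of 17 listed and tested, 13 had fitted fold changes above 0 and 4 below, 0 had an unadjusted p under 0.05, and the median log2 was 0.032. Slbp, whose protein binds the stem-loop, was at 45.8, 47.3 and 53.6 CPM in the WT libraries and 53.3, 51.6 and 45.2 CPM in knockout, overlapping throughout, with a log2 fold change of 0.03 ± 0.09 (SE). Npat, the coactivator of histone gene transcription, had 0.13 ± 0.09, and Sympk, the scaffold of the cleavage complex, had 0.13 ± 0.09. Ncbp2, a subunit of the cap-binding complex, had -0.15 ± 0.07.

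Among 19 histone chaperone genes, 14 had fold changes above 0 and 5 below, and 1 had an unadjusted p under 0.05. That gene was Ubn1, a subunit of the HIRA complex that deposits H3.3, at 0.19 ± 0.07 (log2, SE) with an unadjusted p of 0.0255 and an edgeR adjusted p of 0.806. Hira itself had 0.22 ± 0.14 and Spty2d1, a chaperone of H3 and H4, had 0.12 ± 0.07.

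Core histone genes are S phase genes, so other S phase genes were read beside them. Of 28, 13 had fold changes above 0 and 15 below, with a median log2 of -0.017 and 0 calls by edgeR. Mki67, a marker of cycling cells, was at 6.78, 3.09 and 4.0 CPM in the WT libraries and 9.31, 3.25 and 4.19 CPM in knockout, with libraries of both groups intermixed. The only one with an unadjusted p under 0.05 was Cdc25a, a phosphatase that lets cells enter S phase, at 14.3, 16 and 13.7 CPM in the WT libraries and 19.5, 19.9 and 21.7 CPM in knockout. Its groups did not overlap, with a log2 fold change of 0.48 ± 0.09 (SE). The edgeR adjusted p was 0.565, and DESeq2 gave an adjusted p of 0.0172. Mcm6, part of the replicative helicase, had 0.12 ± 0.06 and E2f2, a cell cycle transcription factor, had 0.71 ± 0.35.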

How the data were processed

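RNA from mouse aorta was sequenced in 3 WT and 3 knockout libraries, prepared with an Illumina TruSeq RNA kit per the labels' protocols. The values are estimated counts that the authors made from their reads and deposited as 1 table, with no scaling between libraries; many are not whole numbers. The submitters' processing notes name mm10, STAR 2.6 and DESeq2. The counting tool, the annotation, strand use and the treatment of reads that match several genes are not stated in the labels or notes read, which matters for near-identical histone genes. Counts were rounded. edgeR 4.0.16 (R 4.3.3) was run with TMM scaling, its filter on low counts, the robust quasi-likelihood F test on the 6 libraries without covariates, and Benjamini-Hochberg adjustment over all genes tested, at a threshold of 0.05. SE is the log2 fold change divided by the square root of F. DESeq2 1.42.0 and limma 3.58.1 were alternatives, as were other scalings, filters, a replicate block and leaving out each library. The fit was tested on simulated data. Levels per kb use the longest coding transcript of GENCODE M21, or the longest transcript for the 3 pseudogenes. The gene start in GENCODE matched the table for all 62 members. Named genes were the members with an unadjusted p under 0.05, the 3 tested members highest per kb in each cluster, the highest of each histone type, the 3 largest fold changes in each direction, the 3 smallest p in each related list with 6 genes named outright, and Vmp1. The members and lists were chosen with earlier results of these data known. Adipocyte markers were not analysed here.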

Additional observations from a re-analysis of the deposited data

How the results depend on the processing

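The count of genes called was 0 in edgeR under the other scalings, both other filters and a threshold of 0.1, and with limma-voom, but 75 with DESeq2, where 1 member, Hist1h2al, was called. Leaving out each library gave 0 to 1 genes (1 without knockout replicate 1), with 0 members called each time. Deviations from the group mean correlated at 0.289, 0.317 and -0.026 between the WT and knockout libraries of replicate number 1, 2 and 3. For numbers 1 and 2 the WT library matched the knockout library of its own number best, and for number 3 it did not. Whether the numbers mark pairs is not known here. The edgeR fit with the replicate block called 1 gene, Il33, and 0 members, with a lowest member adjusted p of 0.158. The log2 ratio of summed member CPM was -0.364 to -0.258 with libraries left out and -0.308 without members that share over 80% of their windows; without Hist1h1c and Hist1h2bc it was -0.159 (both sums chosen after seeing the data). Fold changes of 10 named genes changed sign under an alternative, Hist1h4i (-0.47), Scarna2 (-0.30) and Mki67 (0.27) with the largest main values: Slbp was -0.04 with limma-voom, and leaving out each library gave -0.11 to 0.17 for Hist1h4d, -0.02 to 0.10 for Slbp, -0.15 to 0.16 for Vmp1, -0.05 to 0.27 for Hist2h3c2, -0.22 to 0.13 for Hist2h2aa1, -1.04 to 0.02 for Hist1h4i, -0.14 to 0.01 for H2afz, -0.40 to 0.05 for Rn7s2, -0.31 to 0.64 for Mki67 and -0.78 to 0.09 for Scarna2. The cause was not tested. Without a filter all 62 members were tested in edgeR and 41 lay below 0, with 0 called. The median log2 fold change over all genes of that fit was -0.003, and the share of all genes below 0 was not computed. Of the 62 members, 11 had under 10 counts in every library. Depth limits the low members: 3 counts correspond to 0.0195 CPM in WT 3 and 0.0804 CPM in knockout 1, for counting error only.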
